A study of Mus musculus with 11 samples.

Results

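This comparison asked how epidermal cells that carry stem cell antigen-1 (SCA-1) differ from hair follicle bulge cells when both have recombined a *Cd4*-driven reporter. It used 6 of the 11 RNA-seq libraries of the series, chosen by their labels: 3 of tdT+CD49f+CD34+SCA-1+ cells and 3 of tdT+CD49f+CD34+ cells that lacked SCA-1. They are called SCA-1+ cells and bulge cells here. All cells came from the back skin of male *CD4Cre/tdT* mice on a C57BL/6 background, with no treatment named. In these mice Cre recombinase under *Cd4* control switches on the red fluorescent reporter tdT from the *Rosa26* locus. Replicate 1 of each population came from mice of 29 weeks and replicates 2 and 3 from mice of 32 weeks. Each library is a pool of cells from 2 mice, not 1 animal. The other 5 libraries held tdT-negative cells of mice of the same genotype, sex and ages, 2 of SCA-1+ cells and 3 of bulge cells, and entered the fit so that all 4 groups shared 1 estimate of the spread. The *Cd4* promoter is also active in T cells, so the reporter is not restricted to keratinocytes by its driver, and the labels name no leukocyte marker in the gates. The deposited counts per gene summed to between 17409131 and 46542177 per library, and to between 17409131 and 36593970 in the 6 tdT+ libraries. Mitochondrial transcripts took 1.44 to 2.28% of the counts in the tdT+ SCA-1+ and 2.57 to 4.20% in the tdT+ bulge libraries.

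The bulge is the part of the outer root sheath in which the stem cells of the hair follicle stay quiet between hair cycles. They are anchored by the integrin α6 (CD49f) and carry CD34, and transcription factors such as SOX9, LHX2 and TCF7L1 keep them in that state. The infundibulum, at the mouth of the follicle, and the basal layer of the interfollicular epidermis (IFE) carry SCA-1, which is encoded by *Ly6a*. Cells of the IFE leave the basal layer to form the spinous, granular and cornified layers. WNT, bone morphogenetic protein (BMP) and hedgehog signals are known to set rest and growth of follicle stem cells.

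Some bulge libraries stood apart before any comparison was made. Albumin RNA (*Alb*) reached 9564, 4393 and 37.3 CPM (normalized counts per 1e6 counts) in the bulge libraries 1, 2 and 3, and 6.80 and 13.7 CPM in the tdT-negative SCA-1+ and 3.04, 6099 and 5.001 CPM in the tdT-negative bulge libraries, whereas the SCA-1+ libraries held 6.16, 15.2 and 18.6 CPM. The same 3 bulge libraries (tdT+ replicates 1 and 2 and tdT-negative replicate 2) were high in all 26 liver transcripts of a list drawn up after this was seen. Their sum took 4.65%, 2.22% and 2.57% of all counts in these libraries. In each of the other 8 it was at most 0.0164%.

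*Xist*, the RNA of the inactive X chromosome, stood at 418, 1318 and 1.27 CPM in the 3 tdT+ bulge libraries and at 1.05, 211 and 1.20 CPM in the tdT-negative bulge libraries, although all mice were labelled male, and at no more than 1.25 CPM in the SCA-1+ libraries of either tdT status. The Y-linked *Ddx3y* was present in every library, at 81.3, 39.4 and 125 CPM in tdT+ bulge and 154, 151 and 145 CPM in tdT+ SCA-1+ cells. In a row outside the Ensembl genes, whose name the labels do not explain, 5 of the 6 tdT+ libraries held between 133 and 307 CPM and the tdT-negative libraries between 2.54 and 4.89 CPM, and 1 tdT+ library stood apart. The library labelled tdT+ bulge replicate 2 held 2.05 CPM, 37 counts, below every tdT-negative library. That library also held 175 CPM of the endothelial *Pecam1*, against 5.21 and 1.05 CPM in bulge replicates 1 and 3. What put these transcripts into the libraries was not tested. In that row the library labelled tdT+ bulge replicate 2 did not stand with the other tdT+ libraries, so what its tdT+ label means is uncertain. Whether the label is right was not tested. The library was kept in the tdT+ bulge group, and without it alone 670 genes rose and 983 fell in the comparison below, against 591 and 1124 with it. Counts below are for all 11 libraries, with those without the 3 libraries beside them for most lists. Their removal leaves replicate 3 as the single tdT+ bulge library and assumes that it varies like the libraries of the other groups.

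**Figure D1:**
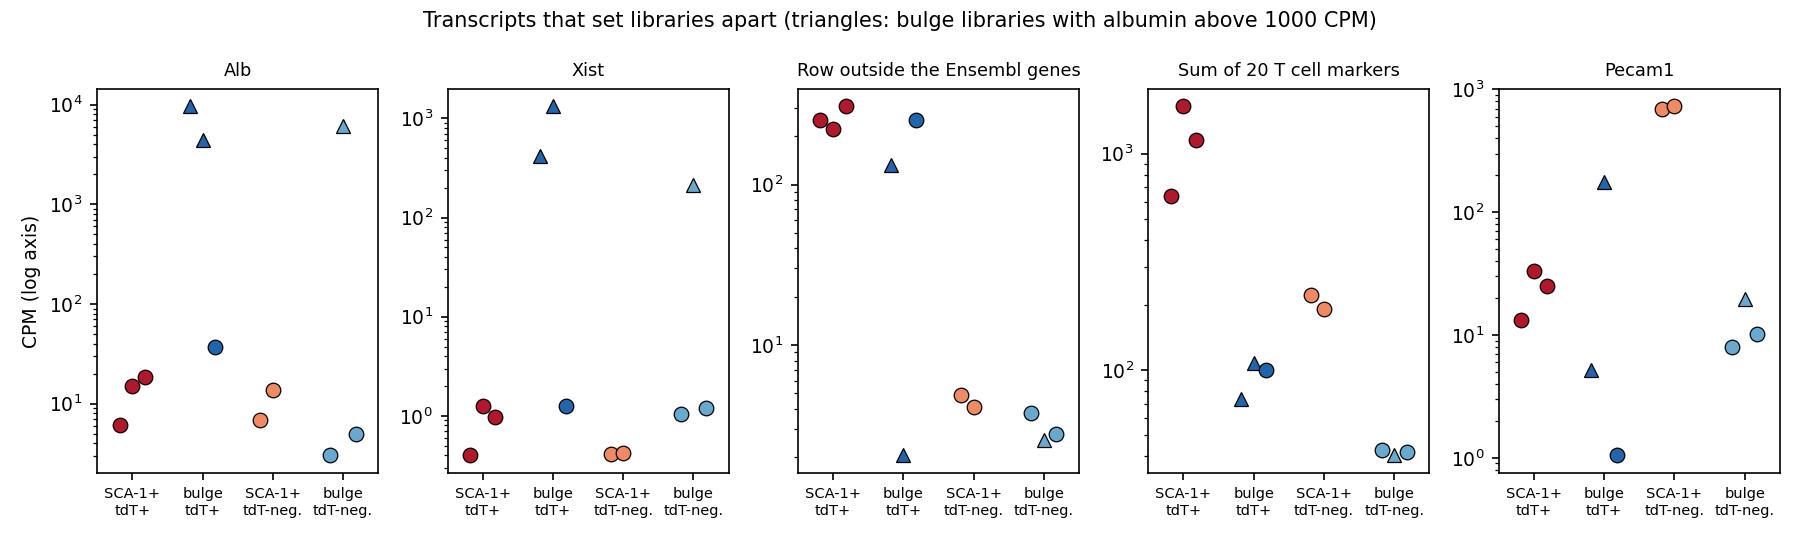
CPM on log axes of *Alb*, *Xist*, the row outside the Ensembl genes, the sum of 20 T cell markers and *Pecam1* in each of the 11 libraries, by group, with 1 point per library and triangles for the 3 bulge libraries with albumin above 1000 CPM. The triangles lie above the other libraries for *Alb* and *Xist*, 1 tdT+ bulge library lies below the tdT-negative libraries for the row outside the Ensembl genes, and the tdT+ SCA-1+ libraries hold the highest T cell sums.

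In SCA-1+ cells 10 of 13 transcription factors of hair follicle stem cells fell, 17 of 20 T cell markers rose and 9 of 24 epidermal transcription factors rose. Of 20307 genes tested, 591 rose in SCA-1+ over bulge cells (2.91%) and 1124 fell (5.54%) at an adjusted p-value under 0.05 and a change over 2-fold (edgeR's quasi-likelihood test with Benjamini-Hochberg adjustment). A gene that passed both limits is said here to have risen or fallen. Together these 1715 genes were 8.45% of those tested. In 1694 of them the 3 SCA-1+ and 3 bulge libraries did not overlap, as in 30.4% of all genes tested. Without the 3 libraries 9.62% were called, and 1071 of 21477 genes rose (4.99%) and 996 fell (4.64%), so that the share of rises among the changed genes went from 34.5% to 51.8%. Both fits called 418 of the same genes as higher and 778 as lower, 70.7% of the first fit's rises and 69.2% of its falls. Without bulge replicate 1 alone the number of rises was 360. The median of all log2 fold changes was -0.07 with all 11 libraries and 0.12 without the 3. In bulk RNA, fewer cells of a type and less RNA per cell cannot be told apart.

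**Figure D2:**
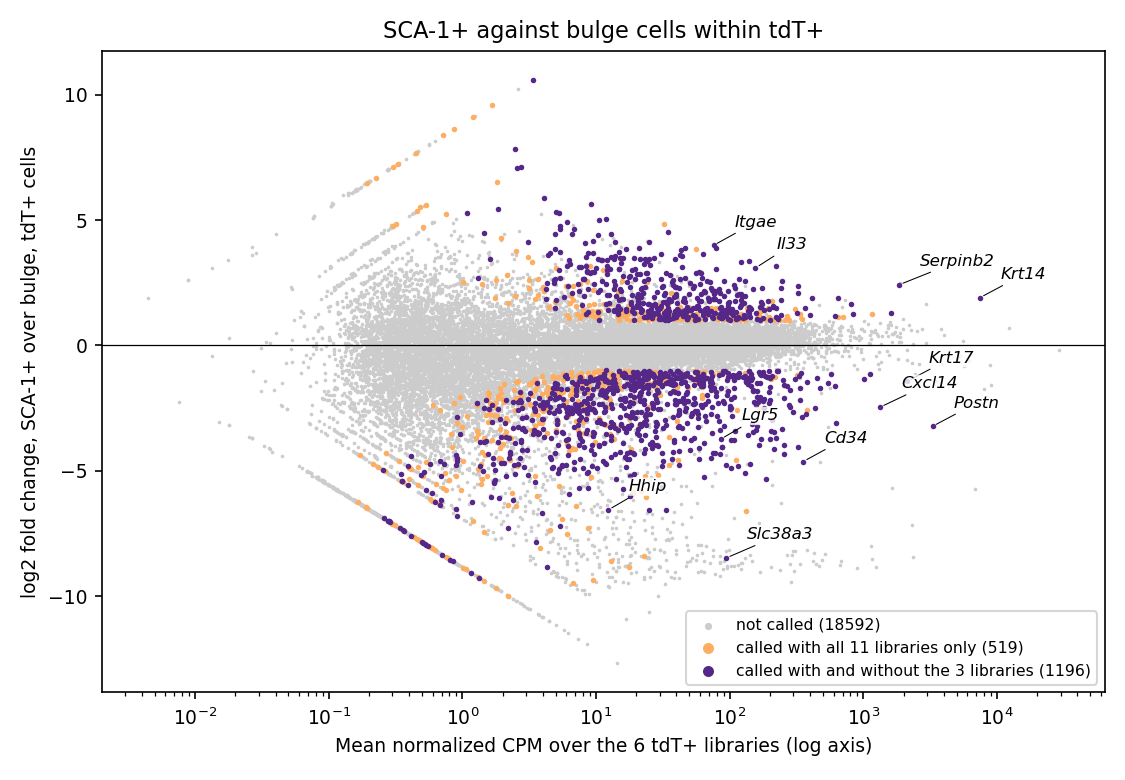
log2 fold change of SCA-1+ over bulge cells within tdT+ against the mean normalized CPM of the 6 tdT+ libraries (log axis), 1 point per gene tested. Purple genes, 1196 in all, were called with and without the 3 libraries, and orange genes with all 11 libraries only; *Krt14* and *Serpinb2* lead the abundant rises and *Postn* the abundant falls.

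**Figure D3:**
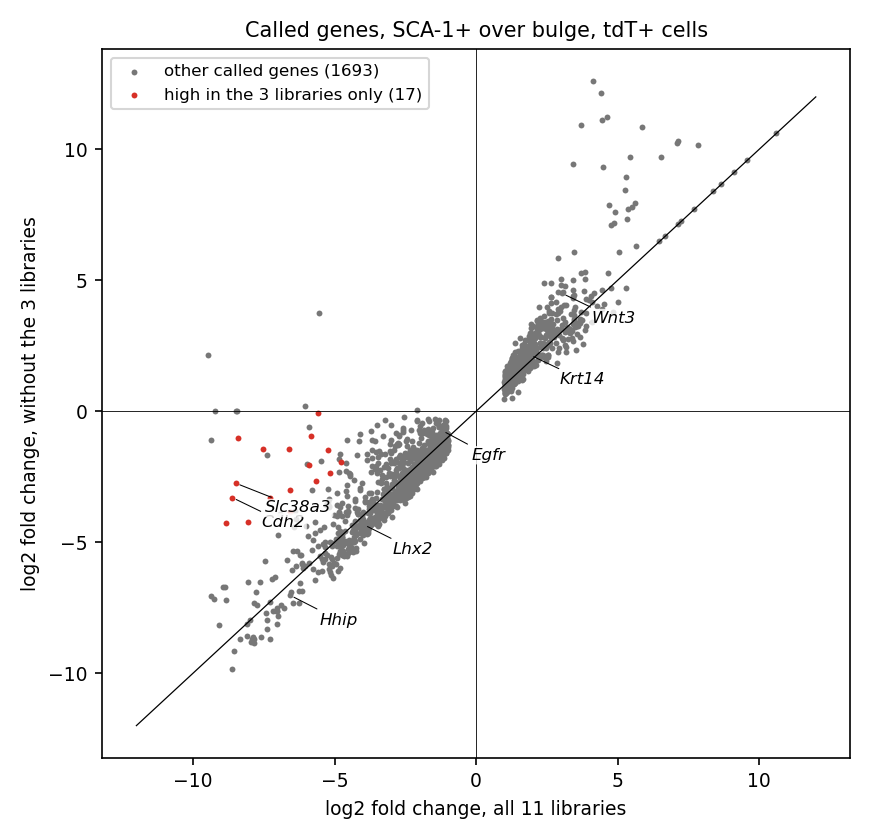
log2 fold change of the called genes with all 11 libraries against that without the 3 libraries. The line marks equal change, 1710 genes could be fitted both ways, and the 17 red falls, of genes at least 4-fold higher in each of the 3 libraries than in all 8 others (1 CPM added), lie nearer to 0 without these libraries.

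Part of the falls rested on the 3 libraries. Of 1124 falls, 222 had a level in bulge replicate 3 less than 2-fold above the SCA-1+ mean. Among tdT-negative cells 963 genes were called between SCA-1+ and bulge cells (4.74%), 668 higher and 295 lower. No library of these cells was in the tdT+ comparison. Both comparisons used the same estimate of the spread, and their replicate numbers were read as the same pools of mice. With 1 library left out these 963 calls became between 55 (without tdT-negative SCA-1+ replicate 1) and 1300 (without tdT+ bulge replicate 3), and the 295 falls between 2 and 370, and the overlaps given next were not recomputed in those fits. There 278 of the rises and 220 of the falls were called in the same direction, together 29.04% of the calls in tdT+ and 51.7% of those in tdT-negative cells, and 19 falls were called as rises. The shares called there were 3.29% higher and 1.45% lower, and without the 3 libraries 6.57% higher and 1.90% lower, 8.47% in all.

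The genes of the 3 sorted antigens are given as levels without a test, since the cells were chosen by these proteins. *Ly6a* (ENSMUSG00000075602, GRCm38 chromosome 15, 74994877 to 74998031), which encodes SCA-1, was at 158, 294 and 153 CPM in the SCA-1+ libraries and at 27.6, 59.2 and 9.64 CPM in the bulge libraries. All SCA-1+ libraries were above all bulge libraries, and within bulge the lowest level was in replicate 3. *Cd34* (ENSMUSG00000016494, GRCm38 chromosome 1, 194938819 to 194961279) was at 24.3, 35.7 and 22.3 CPM in SCA-1+ and 468, 735 and 842 CPM in bulge cells, although both gates required CD34. In the tdT-negative SCA-1+ libraries it was at 319.6 and 383 CPM, above all tdT+ SCA-1+ libraries. *Itga6* (ENSMUSG00000027111, GRCm38 chromosome 2, 71745616 to 71858416), which encodes CD49f, was at 1276, 988 and 1259.8 CPM in SCA-1+ and 387, 547 and 566 CPM in bulge cells, again without overlap.

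**Figure D4:**
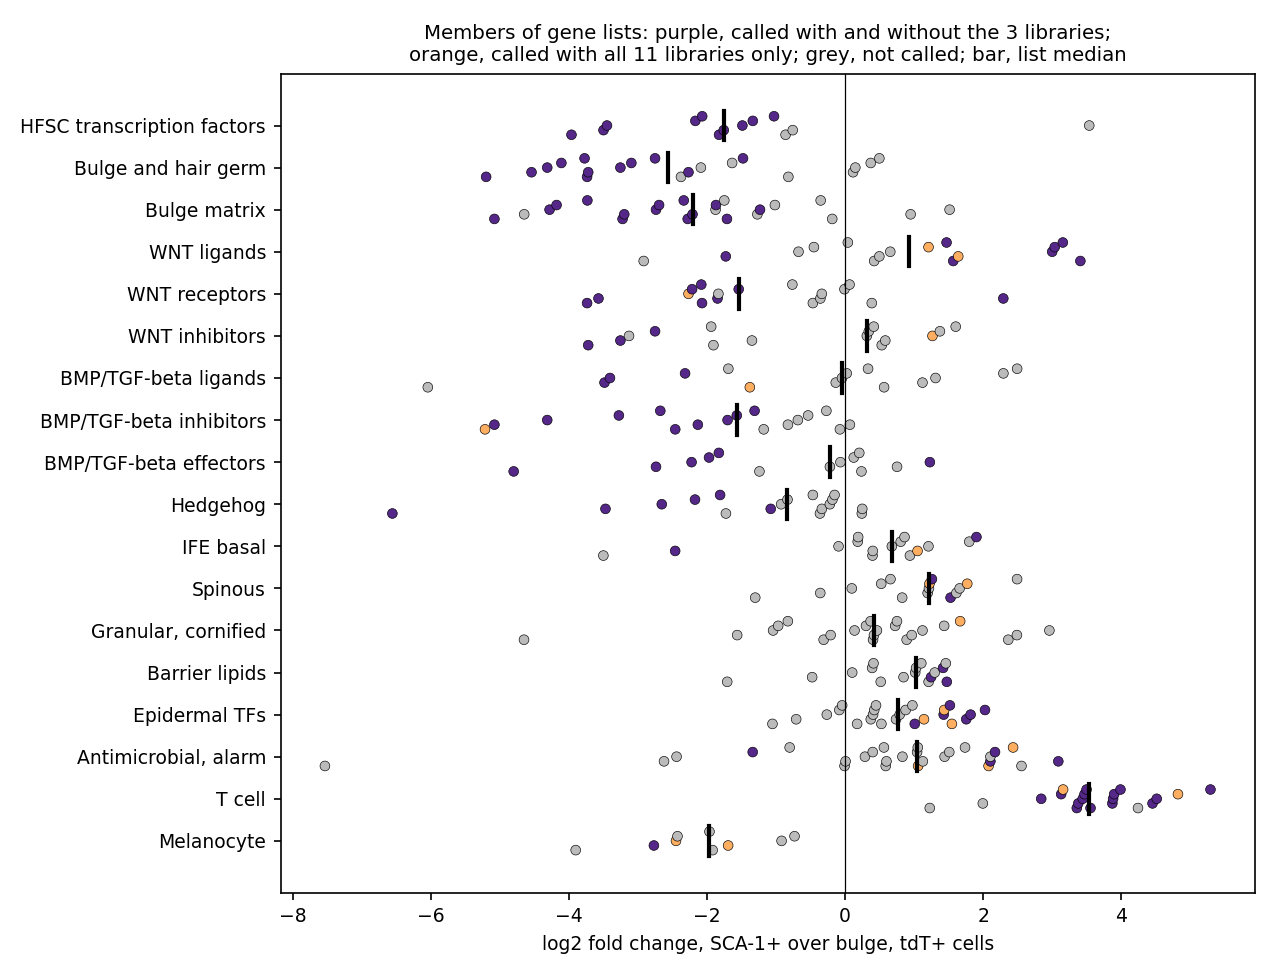
log2 fold change of SCA-1+ over bulge cells within tdT+ for the tested members of 18 gene lists (1 point per gene, bar at the list median). Points of the bulge, WNT receptor and BMP inhibitor lists lie mostly below 0, and those of the T cell and epidermal lists mostly above it.

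Transcription factors of hair follicle stem cells were lower in SCA-1+ cells. Of 13 tested, 10 fell, against 5.54% of all genes, with a list median log2 fold change of -1.76, and the same 10 fell without the 3 libraries, against 3.83% of all genes for falls in both fits. Leaving out any 1 library left between 7 and 10 of them called. With the replicate number, which stands for the pool of mice, as a block in the fit 9 fell, and *Runx1* was the 1 that lost its call (adjusted p = 0.052 in edgeR). In tdT-negative cells the median of the same list was -0.87, against -1.59 for the bulge and hair germ markers. *Lhx2*, needed to keep bulge cells quiet, was at 21.5, 42.7 and 28.5 CPM in SCA-1+ and 387, 452 and 612 CPM in bulge cells (edgeR log2 fold change -3.97, SE 0.37, adjusted p = 0.00033). *Tcf7l1*, a repressor of WNT target genes, was at 3.04, 3.29 and 3.51 CPM in SCA-1+ and 39.1, 25.01 and 47.4 CPM in bulge cells (edgeR log2 fold change -3.50, SE 0.26, adjusted p = 0.00017). *Sox9*, which specifies follicle stem cells, was at 92.6, 108 and 163 CPM in SCA-1+ and 442, 364 and 833 CPM in bulge cells (edgeR log2 fold change -2.17, SE 0.39, adjusted p = 0.0066). In all 3 genes every bulge library was above every SCA-1+ library. *Tbx1*, which supports renewal of follicle stem cells, fell with a log2 fold change of -3.45, and *Nfatc1* and *Foxc1*, which hold bulge cells in quiescence, with -1.76 and -1.83. *Nfib*, *Tfap2b*, *Tcf7l2* and *Runx1* fell with log2 fold changes between -2.07 (*Tfap2b*) and -1.03 (*Runx1*). *Runx1* lost the call in 7 of 11 fits with 1 library dropped (log2 fold changes of -1.19 to -0.79), and *Nfatc1* and *Foxc1* in 2 each. *Foxp1* and *Vdr* had log2 fold changes of -0.76 and -0.86, under the 2-fold limit, and *Hmga2* did not pass the test (adjusted p = 0.15 in edgeR).

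Markers of the bulge and hair germ showed the same direction. 12 of 20 fell, with a median of -2.57, against 5.54% of all genes, and all of these fell without the 3 libraries as well, against 3.83% of all genes for falls in both fits. Between 10 and 13 fell when any 1 library was left out. *Lgr5*, the R-spondin receptor of cycling follicle stem cells, was at 9.09, 19.02 and 7.74 CPM in SCA-1+ and 173, 101 and 204 CPM in bulge cells (edgeR log2 fold change -3.74, SE 0.41, adjusted p = 0.00062). *Grem1*, a BMP antagonist, was at 17.1, 29.1 and 26.7 CPM in SCA-1+ and 309.6, 389 and 755 CPM in bulge cells (edgeR log2 fold change -4.32, SE 0.45, adjusted p = 0.00052). The groups did not overlap, and bulge replicate 3 held the most of both genes. The growth factor genes *Fgf18*, *Bdnf* and *Ptn* fell with log2 fold changes of -3.78, -4.55 and -3.10, the secreted WNT inhibitors *Dkk3*, *Sfrp1* and *Wif1* with -3.73, -2.76 and -3.26, and *Angptl7* with -5.20. *Krt15*, the keratin by which the bulge is often recognised, was at 4259, 3018 and 5039.6 CPM in SCA-1+ and 6274, 6312 and 9217 CPM in bulge cells. These levels did not overlap, but the difference missed the adjusted threshold (edgeR log2 fold change -0.82, SE 0.27, adjusted p = 0.071), and it passed without the 3 libraries (log2 fold change -1.18, adjusted p = 0.038 in edgeR).

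Genes of the extracellular matrix that bulge cells lay down were also lower. 14 of 23 fell with a median of -2.21, all 14 also without the 3 libraries, against 5.54% of all genes for falls and 3.83% for falls in both fits. *Postn* (periostin), the fall with the highest CPM, was at 502, 1075 and 333 CPM in SCA-1+ and 3525, 8308 and 6046 CPM in bulge cells (edgeR log2 fold change -3.23, SE 0.52, adjusted p = 0.0038). *Npnt* (nephronectin), by which bulge cells anchor the arrector pili muscle, was at 45.2, 34.5 and 21.4 CPM in SCA-1+ and 121, 105 and 145 CPM in bulge cells (edgeR log2 fold change -1.87, SE 0.27, adjusted p = 0.0024). Neither gene overlapped between the groups. *Ltbp2*, which binds microfibrils, fell with a log2 fold change of -5.08 and the collagen VI chains *Col6a1* and *Col6a2* with -3.74 and -4.18. The basement membrane collagens *Col4a1* and *Col4a2* fell with log2 fold changes of -2.34 and -2.28. *Fn1* (fibronectin) was at 1819, 895 and 29.5 CPM in bulge libraries 1, 2 and 3 and at 31.5, 44.6 and 33.03 CPM in SCA-1+ libraries. It was high in the bulge libraries that held liver transcripts and not in replicate 3, and it did not pass the test (adjusted p = 0.086 in edgeR). Of 8 contractile genes tested, *Myl9* fell (log2 fold change -4.66).

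**Figure D5:**
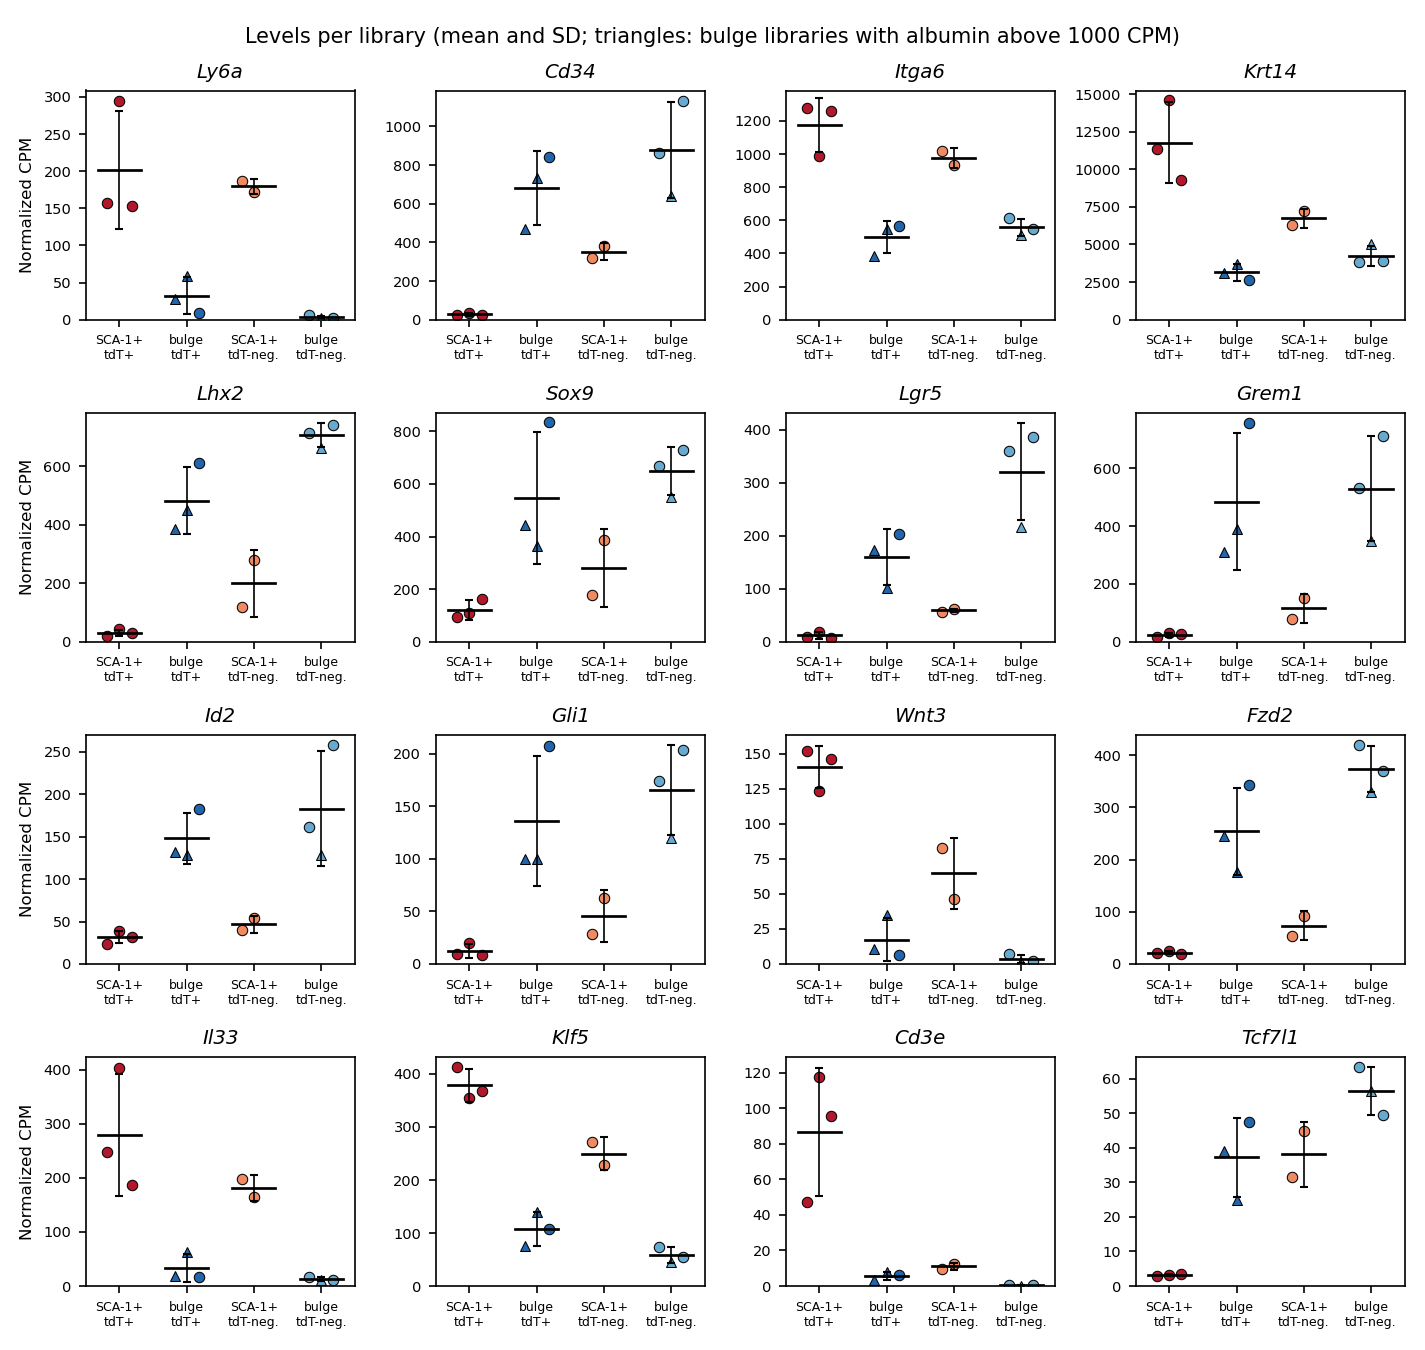
Normalized CPM of 16 genes in each of the 11 libraries, by group (1 point per library, bars at the mean with the SD, triangles for the 3 bulge libraries with albumin above 1000 CPM). In the tdT+ groups, SCA-1+ and bulge libraries are apart in each of the 16 genes, with the tdT+ triangles on the side of bulge replicate 3.

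In the WNT pathway several ligands rose and several receptors fell. Among ligands and R-spondins, 8 of 16 rose, against 2.91% of all genes, and 1 (*Wnt5b*) fell. Among receptors, 8 of 17 fell (9 without the 3 libraries), against 5.54% of all genes, and 1 (*Fzd10*) rose. Of the ligands tested 12 had a log2 fold change above 0 and 4 below. The list medians were 0.93 for ligands and -1.54 for receptors. *Wnt3* was at 152, 123 and 146 CPM in SCA-1+ and 10.6, 34.7 and 6.12 CPM in bulge cells (edgeR log2 fold change 3.04, SE 0.71, adjusted p = 0.021). *Wnt10a*, which keeps the interfollicular epidermis renewing, was at 157, 128 and 155 CPM in SCA-1+ and 40.6, 55.00 and 52.7 CPM in bulge cells (edgeR log2 fold change 1.57, SE 0.15, adjusted p = 0.00042). *Fzd2*, a WNT receptor, was at 20.3, 24.3 and 19.3 CPM in SCA-1+ and 245, 175 and 342 CPM in bulge cells (edgeR log2 fold change -3.58, SE 0.29, adjusted p = 0.00018). In these 3 genes the groups did not overlap, and the library labelled tdT+ bulge replicate 2 held the most *Wnt3* of the bulge libraries. *Wnt3a*, *Wnt4*, *Wnt16* and *Rspo3* rose by 3.41, 1.47, 3.001 and 3.16 on the log2 scale, *Wnt5a* and *Wnt10b* by 1.64 and 1.21. The count of rising ligands was 3 without bulge replicate 1, SCA-1+ replicate 1 or SCA-1+ replicate 3, 4 without SCA-1+ replicate 2 and 5 without tdT-negative bulge replicate 3, while that of falling receptors stayed between 8 and 9. *Wnt3* was among those that lost the call, with a log2 fold change of 2.78 without bulge replicate 1, 2.98 without SCA-1+ replicate 1 and 3.01 without SCA-1+ replicate 3. *Rspo3* lost the call in 9 of 11 fits with 1 library dropped (log2 fold changes of 2.7 to 3.21), *Wnt5a* in 7 (1.15 to 1.83), *Wnt10b* in 6 (1.02 to 1.35), *Wnt5b* in 5 (-1.86 to -1.56) and *Wnt16* in 4 (2.60 to 3.04). With the replicate block 6 ligands rose, without *Rspo3* and *Wnt10b* (edgeR adjusted p = 0.051 and 0.053), and without the 3 libraries 6. *Wnt5a* and *Wnt10b* were not called without the 3 libraries (adjusted p = 0.053 and 0.27 in edgeR). Of the receptors, *Fzd1*, *Fzd3*, *Fzd7*, *Fzd8* and *Lgr4* fell with log2 fold changes of -2.08, -2.22, -2.09, -1.54 and -1.85, and *Fzd4* fell with all 11 libraries but not without the 3 (adjusted p = 0.057). *Tnfrsf19* (TROY), a WNT target, rose by 2.30 on the log2 scale and *Nkd1*, a feedback inhibitor, fell (log2 fold change -4.77). *Axin2*, the usual readout of canonical WNT signalling, was at 96.5, 58.4 and 97.5 CPM in SCA-1+ and 41.6, 36.3 and 54.4 CPM in bulge cells, without overlap (edgeR log2 fold change 0.93, SE 0.23, adjusted p = 0.027), which passed the adjusted threshold and lay under the 2-fold limit.

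In the BMP and TGF-β pathway inhibitors, ligands and target genes were among those that fell, where 5.54% of all genes fell. 10 of 17 inhibitors and binding proteins fell with a median of -1.57, and 9 of them also without the 3 libraries, *Chrd* being the exception (adjusted p = 0.12 in edgeR). *Nog* (noggin), which blocks BMP ligands, was at 2.19, 1.99 and 5.68 CPM in SCA-1+ and 16.4, 29.8 and 49.3 CPM in bulge cells (edgeR log2 fold change -3.28, SE 0.58, adjusted p = 0.0062). The follistatin genes *Fst* and *Fstl1* fell with log2 fold changes of -1.70 and -2.14 and the inhibitory *Smad6* with -2.68. *Ltbp1* and *Ltbp3*, which hold latent TGF-β in the matrix, fell with -2.46 and -1.57. With 1 library dropped, *Fst* lost the call in 3 of 11 fits (log2 fold changes of -1.55 to -1.23). Among effectors and targets, 5 of 13 fell and 1, *Smad3*, rose, against 5.54% and 2.91% of all genes. The falls were *Smad9* and all 4 *Id* genes, which are direct targets of BMP signalling. *Id2* was at 23.98, 38.6 and 32.3 CPM in SCA-1+ and 132, 128 and 183 CPM in bulge cells (edgeR log2 fold change -2.23, SE 0.29, adjusted p = 0.0014), and *Id1*, *Id3* and *Id4* fell with log2 fold changes of -1.97, -1.83 and -2.74. Both groups stayed apart in *Nog* and *Id2*. Among ligands, 4 of 15 fell (1 without SCA-1+ replicate 1 and 2 without SCA-1+ replicate 3 or bulge replicate 1), against 5.54% of all genes. The ligand median was -0.046, and 0.027 without the 3 libraries. The falls were led by *Gdf10* and *Bmp6* with log2 fold changes of -3.49 and -3.41, and *Gdf10* lost the call without SCA-1+ replicate 1 (-3.30). *Bmp4* was at 56.8, 22.8 and 41.1 CPM in SCA-1+ and 5.35, 17.2 and 2.04 CPM in bulge cells and missed the adjusted threshold (edgeR adjusted p = 0.065; 0.011 without the 3 libraries). Of 11 receptors edgeR called 0, with 2 higher and 2 lower at an unadjusted p under 0.05, DESeq2 and limma voom also called 0, and without the 3 libraries edgeR called 2 higher and 1 lower.

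Members of the hedgehog pathway list were among the falls. 6 of 17 tested members fell, against 5.54% of all genes, all also without the 3 libraries, with a median of -0.84. *Gli1*, a transcription factor induced by hedgehog signals, was at 9.06, 19.6 and 8.10 CPM in SCA-1+ and 100.1, 100.3 and 207 CPM in bulge cells (edgeR log2 fold change -3.47, SE 0.48, adjusted p = 0.0019). *Hhip*, an induced inhibitor that binds the ligand, was at 0.613, 0 and 0.0516 CPM in SCA-1+ and 20.1, 17.03 and 36.2 CPM in bulge cells (edgeR log2 fold change -6.56, SE 1.02, adjusted p = 0.0033). Every bulge library was above every SCA-1+ library in both. *Gli2* fell with a log2 fold change of -2.66, the receptor *Ptch1* with -1.08, and the co-receptors *Boc* and *Gas1* with -1.81 and -2.18. *Ptch1* lost the call in 8 of 11 fits with 1 library dropped in each (log2 fold changes of -1.18 to -0.82). *Smo*, the signal transducer, was at 151, 117 and 107 CPM in SCA-1+ and 94.4, 89.5 and 132 CPM in bulge cells, with overlapping ranges (adjusted p = 0.37 in edgeR).

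Growth factor and guidance genes changed on both sides. Of 19 EGF and FGF ligands, 3 rose and 2 fell (2 and 2 without the 3 libraries), and of 9 receptors 4 fell, against 2.91% of all genes for rises and 5.54% for falls. The receptor count was 2 without the 3 libraries, bulge replicate 1, SCA-1+ replicate 1 or SCA-1+ replicate 2. *Fgf1* fell from 102, 101 and 155 CPM in bulge to 7.03, 5.91 and 10.99 CPM in SCA-1+ cells (edgeR log2 fold change -3.90, SE 0.29, adjusted p = 0.00017) and *Fgfr1*, a receptor for it, from 553, 661 and 1007 CPM to 134, 115 and 149 CPM (edgeR log2 fold change -2.48, SE 0.26, adjusted p = 0.00052). The EGF receptor ligands *Epgn* and *Areg* rose by 2.16 and 2.52 on the log2 scale, the latter not without the 3 libraries (edgeR adjusted p = 0.13). *Epgn* lost the call without bulge replicate 1 (log2 fold change 2.08), SCA-1+ replicate 2 (2.19) or SCA-1+ replicate 3 (1.66). *Egfr* fell with all libraries (edgeR log2 fold change -1.20, SE 0.27, adjusted p = 0.019) but not without the 3 (adjusted p = 0.1), nor without bulge replicate 1 (log2 fold change -0.91), SCA-1+ replicate 1 (-1.22) or SCA-1+ replicate 2 (-1.05). Its levels were 605, 405 and 318 CPM in bulge libraries 1, 2 and 3 and 198, 144 and 237 CPM in SCA-1+ libraries, and the 2 with the most were the libraries with liver transcripts. Of 62 guidance genes, 5 rose (3 without bulge replicate 1, SCA-1+ replicate 1, SCA-1+ replicate 3 or tdT-negative bulge replicate 1, and 7 without tdT-negative bulge replicate 2) and 10 fell, against 2.91% and 5.54% of all genes. Without the 3 libraries 3 of these rises and 9 of these falls were called again, among 8 rises and 12 falls of the list. *Sema3e* fell with a log2 fold change of -3.99 and *Robo2*, a Slit receptor, with -2.80, while *Sema4d*, *Sema3f* and *Robo1* rose by 2.03, 1.68 and 2.43. Of 27 Notch pathway genes 2 rose and 1 fell, against 2.91% and 5.54% of all genes. The ligand *Dll1* and the receptor *Notch3* rose by 1.32 and 1.22 and *Lfng*, which modifies Notch receptors, fell (log2 fold change -1.22; -0.93 and no longer called without bulge replicate 3), and *Notch3* was not called without the 3 libraries (adjusted p = 0.076).

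Single genes known from the basal layer and the upper follicle changed. *Krt14* (ENSMUSG00000045545, GRCm38 chromosome 11, 100203162 to 100207548), the keratin of basal cells, was at 11354, 14634 and 9306 CPM in SCA-1+ and 3114, 3709 and 2615 CPM in bulge cells (edgeR log2 fold change 1.90, SE 0.26, adjusted p = 0.0019). Its partner *Krt5* was at 16209.9, 15602 and 13331 CPM in SCA-1+ and 8213, 8689 and 11346 CPM in bulge cells and did not pass (edgeR log2 fold change 0.68, SE 0.24, adjusted p = 0.095). Of 15 interfollicular basal markers, 2 rose (*Krt14* and *Dapl1*; *Dapl1* not without the 3 libraries) and 1, the chemokine *Cxcl14*, fell with a log2 fold change of -2.46, against 2.91% of all genes for rises and 5.54% for falls. Of 13 markers of the upper follicle, *Klk10* rose by 1.70 on the log2 scale and *Krt17* fell (log2 fold change -1.43), against 2.91% and 5.54% of all genes. The call of *Krt17* was lost in 5 of 11 fits with 1 library dropped. When the 3 libraries were left out 3 basal markers rose and 1 fell, and 2 upper follicle markers rose and 4 fell. With the replicate block 3 basal markers rose and 2 fell, and 1 upper follicle marker rose and 2 fell. The infundibular *Krt79*, at 1022, 1031 and 869 CPM in SCA-1+ and 895, 444 and 1043 CPM in bulge cells, and the junctional zone marker *Lrig1*, at 276, 242 and 302 CPM in SCA-1+ and 249.8, 155 and 335 CPM in bulge cells, overlapped between the populations (adjusted p = 0.55 and 0.73 in edgeR).

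Few genes of differentiating keratinocytes passed the test, and the number depended on single libraries. 4 of 15 spinous and 1 of 23 granular and cornified markers rose, against 2.91% of all genes, with medians of 1.21 and 0.42. Of these *Dsg1b* and *Mt4* were also called without the 3 libraries, while *Mt4* lost the call in 5 of 11 fits with 1 library dropped (log2 fold changes of 1.33 to 1.63). The spinous count was 1 without bulge replicate 1, bulge replicate 3 or SCA-1+ replicate 3 and 2 without SCA-1+ replicate 2, whereas it was 6 without tdT-negative bulge replicate 1 and 7 without tdT-negative bulge replicate 2. *Krt1*, the first keratin of the spinous layer, was at 3281, 3075 and 3314 CPM in SCA-1+ and 559.8, 955 and 204 CPM in bulge cells (edgeR log2 fold change 2.49, SE 0.76, adjusted p = 0.058). The groups did not overlap, and the bulge libraries spanned a wider range than the SCA-1+ libraries. Without the 3 libraries 4 spinous and 2 granular and cornified markers rose, and with the replicate block 5 and 3. *Krt1* passed the test without the 3 libraries (adjusted p = 0.025 in edgeR) and with the block (adjusted p = 0.038) and *Krt10*, at 4725, 3204 and 5433 CPM in SCA-1+ and 1225, 2308 and 697 CPM in bulge cells, did not pass with all 11 libraries (adjusted p = 0.16) or without the 3 (adjusted p = 0.082). The barrier lipid genes *Cers3*, *Abhd5* and *Nipal4* rose by 1.47, 1.25 and 1.42, 3 of 16 in the list, against 2.91% of all genes. The list median was 1.02, and 1.62 without the 3 libraries. *Cers3* lost the call without bulge replicate 1 (log2 fold change 1.47) or SCA-1+ replicate 3 (1.23).

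Of the epidermal transcription factors 9 of 24 rose, with 6 also called without the 3 libraries, against 2.06% of all genes for rises in both fits, and 2 members fell without the 3. It was 5 of them without bulge replicate 1 or SCA-1+ replicate 3. *Klf5*, which maintains basal keratinocytes, was at 414, 354 and 368 CPM in SCA-1+ and 74.9, 140.0 and 107 CPM in bulge cells (edgeR log2 fold change 1.82, SE 0.25, adjusted p = 0.0017). *Tfap2c*, an early regulator of the keratinocyte fate, was at 203, 159 and 181 CPM in SCA-1+ and 43.9, 49.3 and 39.9 CPM in bulge cells (edgeR log2 fold change 2.03, SE 0.21, adjusted p = 0.0005). The 3 SCA-1+ libraries lay above the bulge libraries in both. *Zfp750* and *Ehf*, which drive late differentiation, rose by 1.52 and 1.76 and the aryl hydrocarbon receptor *Ahr* by 1.43. *Grhl3* and *Gata3* rose by 1.55 and 1.44 with all libraries and missed the threshold without the 3 (edgeR adjusted p = 0.071 and 0.12).

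Of 27 alarm and antimicrobial genes of the epidermis 6 rose, against 2.91% of all genes, and *S100a6* fell. The sum of the list overlapped between the populations, at 1881 to 3337 CPM in SCA-1+ and 2406 to 2566 CPM in bulge libraries. Without the 3 libraries 3 of these rises were called again, among 9 of the list. Without bulge replicate 1, 3 of the list rose. *Il33*, an alarmin held in the nucleus of basal keratinocytes and also of endothelial cells, was at 247, 404 and 187 CPM in SCA-1+ and 19.1, 62.9 and 16.5 CPM in bulge cells (edgeR log2 fold change 3.09, SE 0.52, adjusted p = 0.0049). *Il1rn*, the interleukin-1 receptor antagonist, was at 127, 130.4 and 122 CPM in SCA-1+ and 29.1, 40.5 and 14.6 CPM in bulge cells (edgeR log2 fold change 2.17, SE 0.41, adjusted p = 0.0088). Neither overlapped between the groups. *Krt16*, a keratin of stressed epidermis, rose by 2.10, and these 3 rises were called without the 3 libraries. Of 24 genes of S phase and mitosis, all 24 had a log2 fold change above 0, with a median of 0.83 against -0.07 for all genes tested. Against 2.91% of all genes, 3 of the 24 rose (*Top2a*, *Ccnb1* and *Cdc20*). Of these *Top2a* was called in both fits, at 159, 201 and 93.6 CPM in SCA-1+ and 63.5, 96.6 and 55.7 CPM in bulge cells, where SCA-1+ replicate 3 lay below the highest bulge library. Of the 24 genes of S phase and mitosis, DESeq2 called 7 higher and limma voom called 0. The CDK inhibitor *Cdkn1a* rose by 1.21 on the log2 scale and *Cdkn1c* fell (log2 fold change -2.55). The 4 rises of the cell cycle list (*Cdkn1a* included) all lost the call without bulge replicate 1, 1 was left without bulge replicate 3 or SCA-1+ replicate 2, and 2 were left without any 1 of the tdT-negative libraries other than bulge replicate 2, whereas 8 genes of the list rose without SCA-1+ replicate 3, 5 without the 3 libraries and 6 with the replicate block.

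Adhesion genes and relatives of *Ly6a* gave single changes with all 11 libraries. Of 22 desmosome and cadherin genes 2 rose and 1 fell, of 22 junction genes 1 fell, of 24 hemidesmosome and integrin genes 1 fell, and of 14 *Ly6* family genes 1 rose and 1 fell, against 2.91% and 5.54% of all genes. *Itga6*, 1 of the hemidesmosome and integrin genes, is not counted as a rise, since it encodes a sorted antigen. When the 3 libraries were left out 2 junction genes fell and the hemidesmosome and integrin and *Ly6* family lists held 4 and 3 rises (*Itga6* included in the former), against 4.64% of all genes for falls and 4.99% for rises. The desmosomal *Dsg1b* and *Pkp1* rose by 1.26 and 1.31 on the log2 scale. *Cldn8*, a tight junction claudin, fell with a log2 fold change of -1.79 and *Itgb8*, an integrin that frees latent TGF-β, with -1.39. *Ly6d*, in the gene family of *Ly6a*, was at 847, 1318 and 899.6 CPM in SCA-1+ and 251, 249 and 318 CPM in bulge cells (edgeR log2 fold change 1.91, SE 0.23, adjusted p = 0.00091), and *Ly6h* fell (log2 fold change -4.73). These 6 genes were also called without the 3 libraries, whereas the 1 cadherin that fell, *Cdh2*, was not. With 1 library left out, *Dsg1b* and *Itgb8* each lost the call without bulge replicate 1, bulge replicate 3, SCA-1+ replicate 1 or SCA-1+ replicate 3 (log2 fold changes of 1.05 to 1.28 and of -1.32 to -1.17), and *Ly6h* without SCA-1+ replicate 1 or 3 (-5.16 and -4.95). *Itgb8* was also not called with the replicate block (adjusted p = 0.054 in edgeR). Of 30 MHC class I and interferon response genes, 1 rose, against 2.91% of all genes. This was *Oas1a* (log2 fold change 2.66), which lost the call in 9 of 11 fits with 1 library dropped (log2 fold changes of 2.18 to 2.93). Without the 3 libraries 9 of the list rose, against 4.99% of all genes, and with the replicate block 2.

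T cell genes rose together. 17 of 20 rose, with a median of 3.53, and 15 also without the 3 libraries, against 2.91% of all genes for rises and 2.06% for rises in both fits. Between 15 and 18 rose when any 1 library was left out. *Cd3e*, a chain of the T cell receptor complex, was at 47.1, 117 and 95.5 CPM in SCA-1+ and 3.49, 7.87 and 6.39 CPM in bulge cells (edgeR log2 fold change 3.87, SE 0.46, adjusted p = 0.00094). *Itgae* (CD103), an integrin that keeps T cells in epithelia, was at 85.7, 173 and 169 CPM in SCA-1+ and 9.11, 10.4 and 7.33 CPM in bulge cells (edgeR log2 fold change 3.99, SE 0.44, adjusted p = 0.00068). *Trdc*, the constant gene of the δ chain, was at 53.9, 92.9 and 89.9 CPM in SCA-1+ and 4.53, 9.16 and 13.3 CPM in bulge cells (edgeR log2 fold change 3.13, SE 0.64, adjusted p = 0.012). In these genes SCA-1+ replicate 1 was the lowest and replicate 2 the highest of the SCA-1+ libraries, and all bulge libraries lay below. *Trac*, the constant gene of the α chain, rose by 3.56 and *Thy1* by 3.36. *Cd8a* was at 27.6, 85.9 and 73.5 CPM in SCA-1+ and 1.45, 0.696 and 4.46 CPM in bulge cells (edgeR log2 fold change 4.82, SE 1.14, adjusted p = 0.022), and at 2.18 and 0 CPM in the tdT-negative SCA-1+ libraries. It was not called without the 3 libraries (adjusted p = 0.087), nor without bulge replicate 1 (log2 fold change 4.59), bulge replicate 2 (4.40), SCA-1+ replicate 2 (4.50) or SCA-1+ replicate 3 (4.69). *Cd4* itself was at 4.64, 4.09 and 0.877 CPM in SCA-1+ and 1.13, 0.0536 and 1.21 CPM in bulge cells, with overlapping ranges (adjusted p = 0.25 in edgeR). The sum over the 20 T cell markers was between 640.3 and 1653 CPM in tdT+ SCA-1+ libraries, 73.5 to 109 CPM in tdT+ bulge, 192 to 222 CPM in tdT-negative SCA-1+ and 40.5 to 43.00 CPM in tdT-negative bulge libraries. This sum was higher in the SCA-1+ libraries, and its part in the rises of single epidermal genes above was not tested.

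Markers of other cell types differed between libraries. The sum over 15 endothelial markers was 89.4 to 198 CPM in SCA-1+ libraries and 169.6, 1440.1 and 22.7 CPM in bulge replicates 1, 2 and 3. The library labelled tdT+ bulge replicate 2 was the highest of the tdT+ libraries. Of these markers *Ramp2* fell (log2 fold change -2.98), and without the 3 libraries 11 of 15 rose, against 4.99% of all genes in that fit, where the list median went from -1.82 to 4.06. Melanocyte markers summed to 20.1 to 29.9 CPM in SCA-1+ and 116 to 133 CPM in bulge libraries. Of 9 tested 3 fell, against 5.54% of all genes. With 1 library left out, *Dct* lost the call in 7 fits (log2 fold changes of -2.51 to -2.02) and *Kit* in 3 (-1.64 to -1.50). *Mitf*, *Dct* and *Kit* fell with log2 fold changes of -2.77, -2.45 and -1.70, of which *Mitf* fell without the 3 libraries too and *Dct* lost its call with the block (adjusted p = 0.073 in edgeR), while *Mlana* and *Tyr* were under 2 CPM in every tdT+ library. *Ptprc* (CD45), the marker of all leukocytes, was at 141, 229 and 179.6 CPM in SCA-1+ and 51.98, 41.6 and 27.3 CPM in bulge cells and missed the threshold (edgeR log2 fold change 2.18, SE 0.77, adjusted p = 0.09), and passed without the 3 libraries (adjusted p = 0.0024). Of 18 tested markers of other leukocytes and Langerhans cells 1, the leukocyte actin-binding gene *Coro1a*, rose (log2 fold change 2.10; 11 of the list without the 3 libraries, where 4.99% of all genes rose, and 3 with the replicate block), and the sum of the list was 706 to 958 CPM in SCA-1+ and 132 to 789 CPM in bulge libraries. Sebaceous gland markers summed to 1890.2, 1109.9 and 1548 CPM in the 3 libraries with liver transcripts (tdT+ bulge replicates 1 and 2 and tdT-negative bulge replicate 2) and to 184 to 581 CPM in the other 8. Merkel cell markers were likewise highest in these 3, at 148, 58.6 and 84.1 CPM against 0.114 to 8.0 CPM in the others. Of 12 sebaceous and 3 Merkel cell markers tested edgeR called 0, with 1 sebaceous marker higher, 3 sebaceous markers lower and 3 Merkel cell markers lower at an unadjusted p under 0.05. DESeq2 called 1 sebaceous marker higher, 3 lower and 3 Merkel cell markers lower, and limma voom called 2 sebaceous markers and 1 Merkel cell marker lower. EdgeR called 2 sebaceous markers higher without the 3 libraries, and 1 sebaceous marker higher and 1 Merkel cell marker lower with the replicate block. The part of these cells in the changes of other genes was not tested. For 13 fibroblast and mural markers edgeR called 0, with 2 lower at an unadjusted p under 0.05 and 1 lower in DESeq2, in limma voom and with the replicate block in edgeR, and their median went from -0.60 to 1.86 without the 3 libraries. Of 21 genes of the dissociation response edgeR called 0, with 5 higher and 1 lower at an unadjusted p under 0.05, and DESeq2 and limma voom called 0. EdgeR called 2 of them higher and 1 lower without the 3 libraries and 1 lower with the replicate block, and the list median went from 0.15 to -0.29 without the 3.

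The 12 largest rises among genes of at least 10 CPM were led by *B3galt5*, which encodes a galactosyltransferase, at 7.73, 33.3 and 13.3 CPM in SCA-1+ and 0.272, 0.589 and 0.220 CPM in bulge cells (edgeR log2 fold change 5.64, SE 0.76, adjusted p = 0.0017). They included the lymphocyte genes *Sit1*, *Cd6*, *Cd2*, *Cd8a*, *Nkg7*, *Tnfrsf9* and *Skap1* and further *Ptpn5*, *Sytl3*, *Rab37* and *Sprr2a3*, whose log2 fold changes were between 4.45 and 5.30. *Sprr2a3*, of the cornified envelope, was the 1 keratinocyte gene by its known role among them. It belongs to a family of near-identical genes, so its counts are uncertain. With 1 library dropped, *Sprr2a3* lost the call in 8 of 11 fits (log2 fold changes of 3.63 to 5.08) and *Rab37* in 3 (4.58 to 4.79). In tdT-negative cells *B3galt5* had 0.854 and 1.59 CPM in SCA-1+ and 0.434, 0.952 and 0.390 CPM in bulge libraries.

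The 12 largest falls rested mostly on the libraries with liver transcripts. *Gckr*, which is known from liver metabolism, *Slc38a3*, *Serpina3n*, *Gulo*, *Ptprd*, *Cdh2* and *C1rl* were high in these 3 libraries, for example *Slc38a3* at 374, 186 and 3.47 CPM in tdT+ bulge replicates 1, 2 and 3, 3.33, 269.9 and 4.15 CPM in the tdT-negative bulge and 0.560, 0.795 and 0.206 CPM in the SCA-1+ libraries. *F830016B08Rik*, at 35.2, 21.4 and 0.0551 CPM in bulge and 0.0533, 0 and 0 CPM in SCA-1+ libraries, and *Shroom1*, at 20.2, 11.6 and 1.38 CPM in bulge and 0.213, 0 and 0 CPM in SCA-1+ libraries, were likewise at their lowest bulge level in replicate 3. *Gckr*, *Serpina3n*, *Cdh2*, *C1rl*, *F830016B08Rik* and *Shroom1* were not called without the 3 libraries, and *Serpina3n* lost its call with the block too (adjusted p = 0.071 in edgeR). *Rab17*, at 14.8, 10.9 and 6.28 CPM in bulge and 0.160, 0 and 0 CPM in SCA-1+ libraries (adjusted p = 0.002 in edgeR), and *Hhip* were high in all bulge libraries. When genes called in both fits were ranked instead, a choice made after the data were seen, *Adra2a*, *Cck* and *Gfra2* entered the 12. *Gfra2*, a receptor for the neurotrophic factor neurturin, was at 19.3, 37.97 and 25.02 CPM in bulge and 1.20, 0.511 and 0.206 CPM in SCA-1+ libraries (edgeR log2 fold change -5.34, SE 0.57, adjusted p = 0.00054). *Adra2a*, an adrenergic receptor, was at 9.97, 45.7 and 37.4 CPM in bulge and 0.640, 0.341 and 0.723 CPM in SCA-1+ libraries. The neuropeptide gene *Cck* was at 7.48, 15.9 and 27.8 CPM in bulge and 0.266, 0.568 and 0.155 CPM in SCA-1+ libraries. Both rankings took only genes without overlap, so by that rule all bulge libraries were above all SCA-1+ libraries in these genes.

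The rises with the highest CPM, which are not corrected for gene length, were led by keratinocyte genes. After *Krt14* came *Serpinb2*, a serine protease inhibitor, at 2321, 2965 and 4097 CPM in SCA-1+ and 309, 1131 and 313 CPM in bulge cells (edgeR log2 fold change 2.42, SE 0.60, adjusted p = 0.028), and the desmosomal *Pkp1* at 2404, 2233 and 2233 CPM in SCA-1+ and 844, 902 and 1029 CPM in bulge cells (edgeR log2 fold change 1.31, SE 0.17, adjusted p = 0.0013). The library labelled tdT+ bulge replicate 2 held the most *Serpinb2* of the bulge libraries, and the call of this gene was lost without bulge replicate 1 (log2 fold change 2.11), bulge replicate 3 (2.12), SCA-1+ replicate 2 (2.42) or SCA-1+ replicate 3 (2.18). *Sfn*, *Itga6* (a gene of the sort), *Ly6d*, *Lgals3* and *S100a14* were also among the 10, and *Sfn* and *Lgals3* were not called without the 3 libraries. The 10 falls with the highest CPM included, after *Postn*, *Krt17* and *Cxcl14*, *App*, *S100a6*, *Ptn*, *Nfib*, *Afdn* and *Fgfr1*, with log2 fold changes between -1.13 and -3.10, and all 10 were called without the 3 libraries too. With 1 library left out, *Krt17* lost the call in 5 fits (log2 fold changes of -1.59 to -0.94), *S100a6* in 5 (-1.45 to -1.16) and *App* in 1, without bulge replicate 3 (-0.88).

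The difference between SCA-1+ and bulge cells itself differed between tdT+ and tdT-negative cells for 79 of 20307 genes (0.389%), tested as an interaction in edgeR. In 77 of them (0.379% of the genes tested) the change was lower in tdT+ than in tdT-negative cells, and in 50 of these both tdT-negative SCA-1+ libraries were above all other libraries. The sum of endothelial markers was 6038 and 6477 CPM in those libraries, and its part in the result was not tested. Some members of the lists above were among the genes that differed. *Tcf7l1* changed by -3.50 in tdT+ and -0.56 in tdT-negative cells (adjusted p of the difference = 0.0099), with 31.5 and 44.8 CPM in tdT-negative SCA-1+ libraries. All 3 tdT+ SCA-1+ libraries were below the other 8. The semaphorin *Sema6a* and the receptor *Fzd4* fell in tdT+ and rose in tdT-negative cells (log2 fold changes of -1.59 and 2.08, and of -2.27 and 2.64, edgeR adjusted p of the difference = 0.0099 and 0.0099). Without the 3 libraries 72 of the 79 genes were called again, while without tdT-negative SCA-1+ replicate 2 the count of genes called was 1.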

How the data were processed

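RNA of FACS-sorted back skin epidermal cells was extracted with TRIzol, and TruSeq v2 libraries were sequenced by the authors, who demultiplexed with bcl2fastq 2.20.0.422, checked reads with FastQC, aligned them to mm10 (GRCm38) with STAR and counted with featureCounts. The strand setting is not given in the sources used here. The deposited values are raw counts per gene, and counts of Ensembl release 96 genes were used. One row with another name, at most 0.0307% of a library, stayed out of library sizes and tests. That release gave gene symbols and positions.

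All 11 libraries were fitted together with edgeR 4.0.16 in R 4.3.3 (TMM scaling, filterByExpr over the 4 groups, quasi-likelihood test, Benjamini-Hochberg adjustment over all 20307 genes). CPM are TMM-normalized, except for the row with another name, whose CPM use library totals. Genes were called at an adjusted p under 0.05 and a fold over 2. Fold changes used edgeR's default prior count, and the log2 CPM behind the correlations between libraries used a prior count of 2. Alternatives were DESeq2 1.42.0, limma 3.58.1 voom with library weights, other scaling and filters, an age term, a replicate block, a fit of the 6 tdT+ libraries and each library left out. Leaving out or modelling the 3 libraries with albumin above 1000 CPM, and the liver list, were added after the data were seen. The p-values measure the spread between libraries within the groups. The common coefficient of variation of that spread was 0.608 with all 11 libraries and 0.404 without the 3. The main fit has no term for the pools of 2 mice, so libraries with the same replicate number entered it as independent. The study's text numbers its replicates as such pools, each sorted into these populations, and the labels repeat these numbers and the ages, so the numbers were read as pairing the libraries. Same-numbered SCA-1+ and bulge libraries correlated in their deviations from the group means at -0.05 to -0.01 within tdT+ and at 0.13 and 0.18 within tdT-negative cells, and those of other numbers at -0.03 to 0.05 and at -0.18 to 0.06. Values with the block are given where it changes the call of a named gene. The SE of an edgeR log2 fold change is its absolute value divided by the square root of the quasi-likelihood F statistic. The 95% intervals computed from it reached a median of 0.956 to either side.

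The populations and gene lists were chosen with earlier results of these data known. Named genes are members of these lists, the 12 largest rises and 12 largest falls among called genes without overlap and with at least 10 CPM in the higher group, the 10 called genes with the highest CPM each way, and the 5 largest differences each way between the tdT+ and tdT-negative comparisons (2 in 1 direction); a few genes that meet this rule are not reported here. The gene row called *Alb* and the sex-linked transcripts were added as library checks. The same code was checked on simulated counts in which 200 genes had been changed.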

Additional observations from a re-analysis of the deposited data

Results flagged for a closer look

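The difference between SCA-1+ and bulge cells was not the same in tdT+ and tdT-negative cells for 79 genes by the interaction test in edgeR, 77 with a lower and 2 with a higher change in tdT+ cells. The 5 with the largest negative difference were *Sox17* (-9.81 on the log2 scale, adjusted p = 0.033), *Thsd7a* (-7.32), *Hspa12b* (-6.53), *Cyyr1* (-6.27) and *Hdc* (-6.13). *Sox17*, an endothelial transcription factor, was at 14.8 and 16.7 CPM in the tdT-negative SCA-1+ libraries, 0.826, 0.511 and 1.75 CPM in the tdT+ SCA-1+ libraries and 0.770, 5.03 and 0.661 CPM in the tdT+ bulge libraries. It was at 0.0207, 0.0793 and 0 CPM in the tdT-negative bulge libraries, near or at 0, so the size of its fitted difference depends on the prior count. *Hdc*, which makes histamine, was at 36.6 and 61.9 CPM in tdT-negative SCA-1+, 2.42, 7.21 and 2.37 CPM in tdT+ SCA-1+ and 6.71, 18.6 and 4.96 CPM in tdT+ bulge libraries. The 2 with a positive difference were *Adamtsl5* (1.48) and *Lancl1* (1.15). *Lancl1* was at 203, 234 and 201 CPM in tdT+ SCA-1+, 143, 149 and 175 CPM in tdT+ bulge, 131 and 136 CPM in tdT-negative SCA-1+ and 201, 217 and 231 CPM in tdT-negative bulge libraries. With the replicate number as a block *Sox17*, *Hspa12b* and *Lancl1* were not called (edgeR adjusted p of the difference = 0.069, 0.11 and 0.069), nor was *Col4a2* (0.079), whereas *B3galt5*, *Bmp6* and *Fgf1* were (0.024, 0.0052 and 0.038). *Hdc* and *Sox17* thus peaked in the libraries whose endothelial markers summed highest, and the part of those cells was not tested.

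The row outside the Ensembl genes entered no comparison, and its level in 5 of 6 tdT+ libraries was above that of all tdT-negative libraries. It was at 254, 224 and 307 CPM in tdT+ SCA-1+ replicates 1, 2 and 3 and at 133 and 252 CPM in tdT+ bulge replicates 1 and 3, against 2.54 to 4.89 CPM in tdT-negative libraries. The library labelled tdT+ bulge replicate 2 was at 2.05 CPM.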

How the results depend on the processing

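Between SCA-1+ and bulge cells within tdT+, 1715 genes were called with edgeR and 3423 with DESeq2. The rises numbered 591, and 934 with DESeq2, 1149 with no fold threshold and 1071 without the 3 libraries with liver transcripts. The falls numbered 1124, and 2489 with DESeq2, 1854 when every gene with a count was tested and 739 without the 2 tdT+ libraries among those 3. Within tdT-negative cells 963 became 2162 with DESeq2, 2710 with voom, 1820 without the 3 libraries and 2020 with a term for them. There the rises went from 668 to 1314 (DESeq2), 1011 (at least 1 count), 1784 (voom), 1412 (without the 3) and 1464 (term), and the falls from 295 to 848 (DESeq2), 926 (voom) and 556 (term). The difference between both comparisons went from 79 to 845 (DESeq2), 263 (at least 10 counts in every library), 568 (at least 1 count), 646 (voom), 218 (without the 3) and 316 (term). In simulated counts for 20307 genes with 200 changed by a log2 fold change of 2, edgeR recovered 47.0% and called 3 unchanged genes, and DESeq2 recovered 67.5% and called 54.

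Leaving out 1 library gave 1174 (without bulge tdT+ replicate 1) to 2233 calls (without bulge tdT-negative replicate 2) within tdT+, 360 to 670 rises and 813 to 1569 falls. Within tdT-negative cells it gave 55 (without SCA-1+ tdT-negative replicate 1) to 1300 calls (without bulge tdT+ replicate 3), 53 to 930 rises and 2 to 370 falls. For the difference it gave 1 (without SCA-1+ tdT-negative replicate 2) to 376 calls (without bulge tdT+ replicate 3), so that the 79 depended on single libraries. Of 158 named genes called, 54 lost the call in at least 1 such fit and 104 in no such fit. The call was lost in 9 of the 11 fits for *Rspo3* and *Oas1a*, in 8 for *Ptch1*, *Ccnb1*, *Top2a* and *Sprr2a3*, in 7 for *Runx1*, *Wnt5a*, *Dct*, *Cdh2*, *Gckr*, *Serpina3n*, *Slc38a3* and *F830016B08Rik*, and in 6 for *Grhl3* and *Wnt10b*.

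With the replicate block 1704 genes were called, 610 of them higher. Within tdT+ it took the call from *Itgb8*, *Runx1*, *Rspo3*, *Wnt10b*, *Dct* and *Serpina3n*, gave one to *Krt1*, *Hdc* and *Thsd7a*, and changed no other call of a named gene.

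Medians and single genes changed direction in a few fits. The endothelial median was 4.06 without the 3 libraries and from -2.39 to 1.11 with 1 library left out (1.11 without bulge tdT+ replicate 2), and the fibroblast and mural median 1.86 without the 3 and from -2.14 to 0.54 with 1 left out (0.54 without bulge tdT+ replicate 1). In the order without the 3 libraries, with a term for them and without the 2 tdT+ ones, log2 fold changes were 0.28, 0.12 and 0.31 for *Fn1*, -0.12, -0.086 and -0.092 for *Krt79*, -0.31, -0.0052 and -0.29 for *Lrig1*, 4.48, 1.81 and 4.50 for *Pecam1* and 0.62, 0.69 and 0.64 for *Sox17*. Without the 3 and without the 2 they were -0.10 and -0.073 for *Smo* and 3.59 and 3.68 for *Tyr*. With 1 library left out they ran from -0.099 to 0.43 for *Lrig1*, -1.92 to 2.91 for *Pecam1* and -1.67 to 0.52 for *Sox17*, with the changed sign without bulge tdT+ replicate 2, and from -2.16 to 0.027 for *Mlana*, with the changed sign without bulge tdT+ replicate 1. These genes were not called within tdT+ with all 11 libraries, and the cause was not tested.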
